A study of Mus musculus with 10 samples.

Results

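Described here are 10 imprinted growth genes, which are genes read mainly from the copy inherited from 1 parent: *H19*, *Igf2*, *Meg3*, *Rian*, *Dlk1*, *Peg3*, *Cdkn1c*, *Plagl1*, *Grb10* and *Igf2r*. They were taken by name from the 35275 gene IDs of the count files through the GENCODE M21 gene models (GRCm38 build), and all 10 were found. RNA-seq was carried out on whole tissue from the small intestine of 5 WT mice and 5 WB-KO mice, mice lacking the metal transporter gene *Zip14* (*Slc39a14*) in the whole body, with 1 library per mouse. The labels call every sample proximal intestine and give 8 to 10 weeks for both genotypes, which was taken as the age. Both genotypes came from matings of heterozygous mice of 1 strain, and the labels give no sex. All 10 libraries had between 309 and 590 CPM of *Xist*, the RNA of the inactive X chromosome, with the Y-linked *Ddx3y*, *Kdm5d*, *Eif2s3y* and *Uty* at or near 0, so that the libraries match female mice. The series title names a deletion in enterocytes and the labels only a knockout, so that the name WB-KO follows the paper. No cell type was isolated, so that more cells of a type and more RNA per cell cannot be told apart.

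Imprinted genes tend to act together on growth before birth and are mostly turned down in adult tissue. *Igf2* is a growth factor whose gene shares enhancers with *H19*, a long noncoding RNA read from the other parent's copy, and *Igf2r* is the receptor that takes IGF2 into lysosomes for breakdown. *Meg3* and *Rian* are long noncoding RNAs of a second cluster, read from the mother's copy, while *Dlk1* in the same cluster is read from the father's. *Plagl1* is a zinc finger transcription factor of this network, *Cdkn1c* and *Grb10* restrain the cell cycle and growth factor signalling, and *Peg3* is a zinc finger protein.

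Some of these transcripts also carry miRNAs, short RNAs that pair with target messages through a seed at bases 2 to 8. RefSeq (GRCm38.p6) places 13 mature miRNAs within 4 of the genes, and their 13 seeds all differ. Shown are 4 pairs, from *H19*, *Meg3*, *Rian* and *Igf2*, because the results turn on these host genes, with the seed in capitals.
miR-675-5p: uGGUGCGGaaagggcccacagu
miR-675-3p: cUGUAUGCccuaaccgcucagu
miR-770-5p: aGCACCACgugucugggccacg
miR-770-3p: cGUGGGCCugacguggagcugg
miR-370-5p: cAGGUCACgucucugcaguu
miR-370-3p: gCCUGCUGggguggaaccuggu
miR-483-5p: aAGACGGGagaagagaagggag
miR-483-3p: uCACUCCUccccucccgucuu
The miR-675 hairpin lies in an exon of *H19* at chr7:142577064-142577147 on the minus strand, and the miR-770 hairpin in an exon of *Meg3* at chr12:109563692-109563785 on the plus strand. The miR-370 hairpin is intronic in *Rian* at chr12:109618258-109618336 on the plus strand, and the miR-483 hairpin is intronic in *Igf2* at chr7:142654924-142654996 on the minus strand. The libraries were made for longer RNA, so that counts of a host gene say nothing of its mature miRNAs.

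Promoter windows from RefSeq (GRCm38.p6), each from 250 bases before to 50 bases after a start site, were found for 8 of the 10 genes, all but *H19* and *Cdkn1c*. They are printed for *Meg3* and for *Rian* and *Plagl1*, the genes with the highest r with *Meg3* across the libraries, with matches to the searched motifs in capitals.
Meg3, chr12:109540746-109541045, plus strand: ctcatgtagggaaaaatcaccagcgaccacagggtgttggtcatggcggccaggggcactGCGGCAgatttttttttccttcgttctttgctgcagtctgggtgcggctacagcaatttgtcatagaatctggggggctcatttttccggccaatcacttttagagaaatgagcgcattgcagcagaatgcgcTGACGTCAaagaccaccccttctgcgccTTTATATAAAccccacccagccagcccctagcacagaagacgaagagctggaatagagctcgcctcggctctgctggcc
Rian, chr12:109603695-109603994, plus strand: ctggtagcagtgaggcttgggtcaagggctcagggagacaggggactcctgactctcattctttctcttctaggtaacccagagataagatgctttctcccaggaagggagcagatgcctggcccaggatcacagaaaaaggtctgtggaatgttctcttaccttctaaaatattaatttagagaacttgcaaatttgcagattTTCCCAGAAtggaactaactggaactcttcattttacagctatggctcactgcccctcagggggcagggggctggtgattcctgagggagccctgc
Plagl1, chr10:13090582-13090881, plus strand: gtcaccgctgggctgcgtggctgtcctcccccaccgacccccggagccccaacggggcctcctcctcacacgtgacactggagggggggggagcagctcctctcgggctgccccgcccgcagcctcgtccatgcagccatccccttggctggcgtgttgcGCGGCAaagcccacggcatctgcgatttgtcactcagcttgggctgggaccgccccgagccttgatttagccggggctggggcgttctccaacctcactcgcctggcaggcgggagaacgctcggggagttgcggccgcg

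Both strands were searched, and bases are counted from 1 at the 5′ end of a window. The letters TGCCGC, bound by the imprint keeper ZFP57 when methylated, stood in reverse at bases 61 to 66 of the *Meg3* window and 161 to 166 of the *Plagl1* window, and 11.6% of all 32807 windows hold them. They also stood in a window of *Igf2* and of *Grb10*. The *Meg3* window also held the cAMP response element TGACGTCA at bases 194 to 201, found in 1.79% of windows and, among the 10 genes, also in that of *Peg3*. Its TATAAA letters overlapped on both strands from base 222 to 231, and 13.6% of windows hold them. The only match in the *Rian* window was the STAT pattern TTCNNNGAA at bases 205 to 213, found in 8.29% of windows. An NF-kB motif, present in 8.46% of windows, was not matched in the 13 windows of the 8 genes, which leave out *H19*. The paper reports STAT3 and NF-kB consensus sites at the *H19* and *Meg3* promoters, and more NF-kB bound at both in enterocyte-specific knockout mice. Where those sites lie was not compared with the windows of 300 bases searched here. The printed windows held 13 CpG sites for *Meg3*, 0 for *Rian* and 26 for *Plagl1*, against a median of 7 over all windows, and a second window of *Meg3*, which is not printed, held 1.

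Levels are given as CPM, the counts of a gene scaled to the TMM-adjusted size of its library. For the targeted gene *Slc39a14*, WT libraries averaged 260.4 ± 62.5 CPM and WB-KO libraries 102 ± 32.9 CPM (SD, n = 5 each), a log2 difference of -1.35 (edgeR adjusted p = 0.00184). Reads of the gene thus remained in every WB-KO library, from 78.5 CPM in replicate 4 to 160.1 CPM in replicate 1. Total counts per library were between 16729787 and 20819678. Markers of position along the intestine went against the shared label of proximal intestine. Of 5 proximal markers, 2 were called lower in WB-KO mice, the transcription factors *Gata4* (-3.56, edgeR adjusted p = 0.0177) and *Onecut2* (-6.24, adjusted p = 0.000286). The lactase gene *Lct*, which made up most of their sum in WT libraries, averaged 3537 ± 181 CPM in WT and 198 ± 307 CPM in WB-KO libraries without a call (adjusted p = 0.0632), while *Slc40a1* (0.66) and *Cybrd1* (-0.32) overlapped between the groups. The 5 proximal markers summed to between 3689 and 3986 CPM in WT libraries and between 34.2 and 797 CPM in WB-KO libraries. Summed over 5 ileal markers, all called higher, the level was between 199 and 237 CPM in WT libraries and between 3245 and 10499 CPM in WB-KO libraries. Since this held in all 5 WB-KO libraries, genotype and position along the intestine cannot be told apart, and no result could be given without these libraries. The 11 smooth muscle markers summed to between 1742 and 2891 CPM in WT libraries and between 3952 and 11712 CPM in WB-KO libraries, with WB-KO replicate 4 highest.

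All 10 imprinted genes had enough counts for the edgeR test. With an adjusted p under 0.05, *Plagl1* was higher and *Igf2r* was lower in WB-KO mice, which is 20% of the genes, where 29.9% of the 15610 genes tested were called (16.0% higher and 13.9% lower). DESeq2 called 4 of the 10 higher and 1 lower, and edgeR without WB-KO replicate 1 did the same in number. The fold changes pointed upward in 9 of the 10, and their median was 0.68 on the log2 scale against 0.03 over all genes tested. Libraries of the groups did not overlap in 1 of the 10 genes, *Igf2r*, and in 21.1% of all genes tested.

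**Figure D1:**
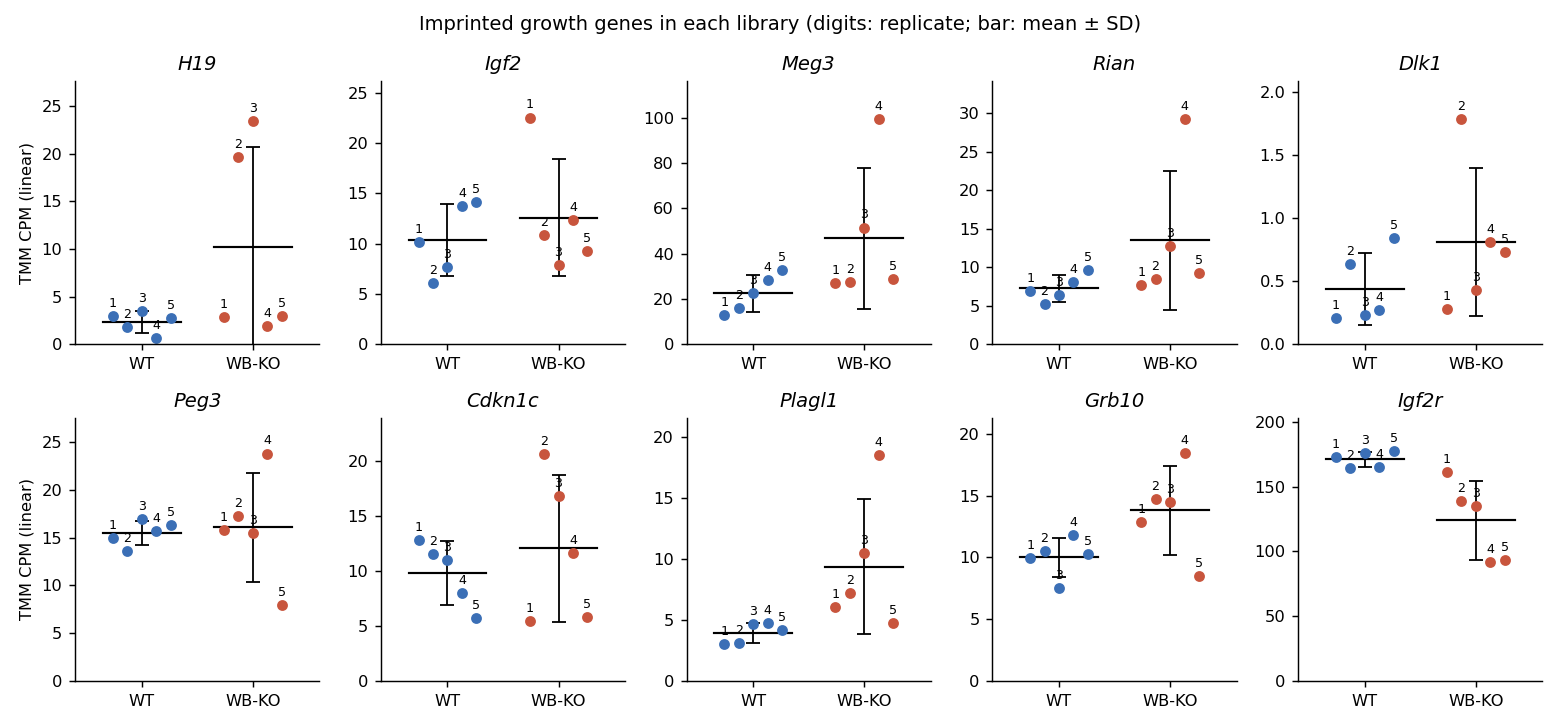
TMM CPM of each imprinted gene in the 5 WT and 5 WB-KO libraries on linear axes from 0, with the replicate number over each point and bars for the mean ± SD. WB-KO replicates 2 and 3 stand out for *H19*, replicate 4 for *Meg3*, *Rian* and *Plagl1*, replicate 1 for *Igf2*, and for *Igf2r* all 5 WB-KO libraries lie below the WT libraries.

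*H19* (ENSMUSG00000000031) is placed at 142575529 to 142578143 of chromosome 7, minus strand. In WT replicates 1 to 5 it had 2.96, 1.79, 3.50, 0.659 and 2.75 CPM, and in WB-KO replicates 1 to 5 it had 2.87, 19.6, 23.5, 1.95 and 2.94 CPM. WB-KO replicates 2 and 3 were far above every other library, while the other 3 WB-KO libraries lay within the WT range. On the log2 scale the difference was 2.12 (SE 0.74, edgeR adjusted p = 0.0512), which did not pass the threshold. It passed with DESeq2 (2.11, adjusted p = 0.0308) and when WB-KO replicate 1, 4 or 5 was left out, with an adjusted p as low as 0.0295, whereas leaving out WB-KO replicate 3 gave 1.54 (edgeR adjusted p = 0.136).

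*Igf2* (ENSMUSG00000048583; chromosome 7, minus strand, 142650766 to 142666816), the growth factor gene next to *H19*, did not follow it. It had 10.2, 6.06, 7.70, 13.7 and 14.1 CPM in WT replicates 1 to 5 and 22.5, 10.9, 7.88, 12.3 and 9.29 CPM in WB-KO replicates 1 to 5. Only WB-KO replicate 1 exceeded the WT range, and the 2 libraries with high *H19* were within it. The log2 fold change of 0.28 (SE 0.31, edgeR adjusted p = 0.524) became -0.04 without WB-KO replicate 1. GENCODE M21 draws a further gene on the same strand over 3596 exonic bases of *Igf2*. It is not among the gene IDs analysed here, and reads from the shared bases may be counted as *Igf2*.

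The IGF2-clearing receptor gene *Igf2r* (ENSMUSG00000023830; chromosome 17, minus strand, 12682406 to 12769664) was the most abundant of the 10. Levels were 172.7, 164, 176, 165 and 177 CPM in WT replicates 1 to 5 and 161, 139, 135, 91.8 and 93.2 CPM in WB-KO replicates 1 to 5. Every WB-KO library was below every WT library, by a narrow margin for WB-KO replicate 1 and a wide one for replicates 4 and 5. *Igf2r* fell by 0.46 on the log2 scale (SE 0.15, edgeR adjusted p = 0.0414). The adjusted p was above 0.05 after leaving out any of 8 libraries, namely each WT library and WB-KO replicates 3, 4 and 5, with log2 fold changes from -0.58 to -0.37 over all 10 such fits. It was also not called when only library size was used for scaling (-0.34, adjusted p = 0.0967).

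*Meg3* (ENSMUSG00000021268; chromosome 12, plus strand, 109541001 to 109571726), the noncoding RNA of the second cluster, had 12.8, 15.8, 22.7, 28.4 and 32.7 CPM in WT replicates 1 to 5. In WB-KO replicates 1 to 5 it had 27.2, 27.3, 51.5, 99.5 and 28.8 CPM. Replicates 3 and 4 of the WB-KO group exceeded all WT libraries, and the other 3 were within the upper part of the WT range. A log2 fold change of 1.06 (SE 0.40, edgeR adjusted p = 0.0655) did not pass. DESeq2 called it (1.04, adjusted p = 0.0251), as did edgeR without WB-KO replicate 1 (1.2, adjusted p = 0.0418), while without WB-KO replicate 4 the edgeR value was 0.59 (adjusted p = 0.167). *Gm26906* shares 1228 exonic bases with *Meg3* on the opposite strand and was at 0 counts in every library, which allows up to 3 counts in each; with the strand setting unknown, its reads may have been counted as *Meg3*.

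*Rian* (ENSMUSG00000097451; chromosome 12, plus strand, 109603940 to 109661716), a noncoding RNA downstream of *Meg3* that hosts many small nucleolar RNAs, showed the same order of libraries at its top. It had 6.95, 5.17, 6.36, 8.13 and 9.64 CPM in WT replicates 1 to 5 and 7.66, 8.45, 12.8, 29.3 and 9.18 CPM in WB-KO replicates 1 to 5. Again, WB-KO replicates 3 and 4 were above all WT libraries. The log2 fold change was 0.89 (SE 0.36, edgeR adjusted p = 0.0821). DESeq2 called it (0.88, adjusted p = 0.0483), as did edgeR without WB-KO replicate 1 (1.04, adjusted p = 0.0454), and without WB-KO replicate 4 the edgeR value was 0.39 (adjusted p = 0.191).

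*Dlk1* (ENSMUSG00000040856; chromosome 12, plus strand, 109452823 to 109463336), which encodes a membrane protein related to the Notch ligands, was close to the limit of detection with 4 to 34 counts per library. Its level was between 0.208 and 0.841 CPM in WT libraries and reached 1.78 CPM in WB-KO replicate 2, the highest library, whereas *Meg3* peaked in WB-KO replicate 4. The log2 fold change of 0.89 (SE 0.55, edgeR adjusted p = 0.234) did not pass at this depth, and it was 0.37 without WB-KO replicate 2.

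*Plagl1* (ENSMUSG00000019817; chromosome 10, plus strand, 13060504 to 13131694), the transcription factor, was the 1 gene of the 10 called higher. It had 3.01, 3.13, 4.67, 4.73 and 4.20 CPM in WT replicates 1 to 5 and 6.03, 7.19, 10.5, 18.5 and 4.72 CPM in WB-KO replicates 1 to 5. WB-KO replicates 1 to 4 were above all WT libraries, and replicate 5 was level with the highest WT library. *Plagl1* rose by 1.25 on the log2 scale (SE 0.35, edgeR adjusted p = 0.021), a fold of 2.38. Without WB-KO replicate 4 it was still called (0.85, adjusted p = 0.0311), but not without WT replicate 1 (1.16, adjusted p = 0.0545) or WT replicate 2 (1.17, adjusted p = 0.055).

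The growth restrainers gave smaller differences. *Grb10* (ENSMUSG00000020176; chromosome 11, minus strand, 11930508 to 12038683), an adaptor that dampens insulin and IGF1 receptor signalling, had 9.96, 10.5, 7.52, 11.8 and 10.3 CPM in WT replicates 1 to 5 and 12.8, 14.7, 14.5, 18.5 and 8.50 CPM in WB-KO replicates 1 to 5. In this gene, too, 4 WB-KO libraries were above all WT libraries and replicate 5 was not. Its log2 fold change was 0.46 (SE 0.20, edgeR adjusted p = 0.0934), and 0.60 with a call (adjusted p = 0.019) without WB-KO replicate 5.

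*Cdkn1c* (ENSMUSG00000037664; chromosome 7, minus strand, 143458339 to 143461050), which encodes the cyclin-dependent kinase inhibitor p57, had 12.8, 11.5, 11.0, 8.02 and 5.72 CPM in WT replicates 1 to 5. In WB-KO replicates 1 to 5 it had 5.41, 20.6, 16.8, 11.6 and 5.82 CPM. The 2 libraries above the WT range were those with high *H19*, while WB-KO replicate 1 was just below it. The log2 fold change was 0.29 (SE 0.38, edgeR adjusted p = 0.574), and with 1 library left out it ranged from 0.00 without WB-KO replicate 2 to 0.48 without WB-KO replicate 1. An antisense gene shares 625 exonic bases with *Cdkn1c*, and since the handling of strand is not given in the sources used here, its reads may be included.

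*Peg3* (ENSMUSG00000002265; chromosome 7, minus strand, 6703892 to 6730431), a zinc finger gene with a role in maternal care and cell survival, was even across WT libraries, from 13.7 to 16.9 CPM. It had 15.8, 17.3, 15.5, 23.8 and 7.92 CPM in WB-KO replicates 1 to 5. Replicates 2 and 4 were above and replicate 5 was below all WT libraries, so that the WB-KO group spread to both sides. Its log2 fold change was 0.05 (SE 0.23, edgeR adjusted p = 0.879), and it was -0.13 without WB-KO replicate 4.

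**Figure D2:**
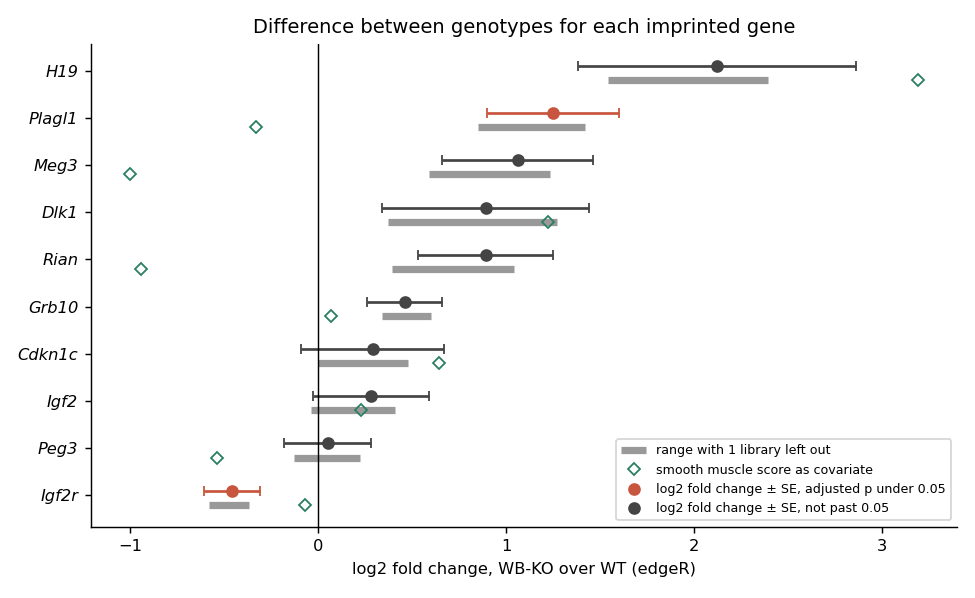
Log2 fold change of WB-KO over WT with its SE for each imprinted gene (circles), the range with 1 library left out at a time (grey bars) and the value with the smooth muscle score as a covariate (diamonds). *Plagl1* (1.25) and *Igf2r* (-0.46) have an adjusted p under 0.05; *H19* has the largest value (2.12) and the widest SE.

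The spread among WB-KO mice exceeded that among WT mice in each of the 10 genes. As a share of the mean, the SD was 103% in WB-KO and 48.1% in WT mice for *H19*, 66.5% and 37.1% for *Meg3*, and 67.2% and 23.6% for *Rian*. For *Igf2r* it was 24.6% and 3.49%. Outside the 10 genes, the spread was also wider for the IGF pathway gene *Igfbp4* (65.4 ± 4.41 CPM in WT and 120 ± 38.6 CPM in WB-KO mice). It was narrower for *Igfbp3* (115 ± 21.6 and 62.4 ± 8.79 CPM, SD, n = 5 each). The share of all genes tested with a wider spread in WB-KO mice was not counted, and the differences in spread were not tested.

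**Figure D3:**
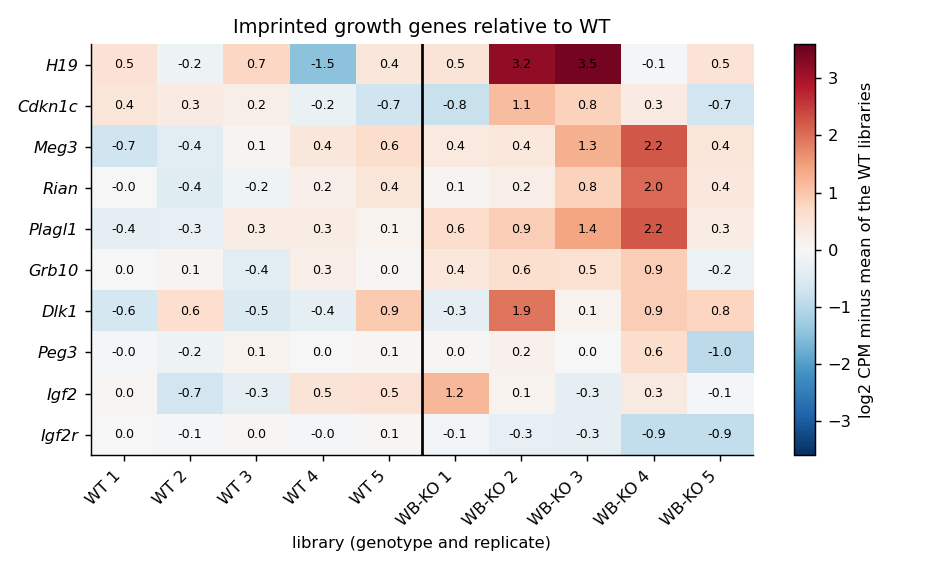
Log2 CPM (prior count 2) of each imprinted gene in each library minus the mean of the WT libraries, with red for higher and blue for lower. *H19* and *Cdkn1c* are highest in WB-KO replicates 2 and 3, and *Meg3*, *Rian* and *Plagl1* in replicates 3 and 4.

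Whether the genes moved together with *H19* or *Meg3* was tested for 17 pairs on log2 CPM over the 10 libraries with permutation tests of 100000 resamples. *Meg3* and *Rian* had Pearson's r = 0.94 (permutation test, adjusted p = 0.00255) and Spearman's rho = 0.95 (adjusted p = 0.00255), the highest rho of the 17 pairs. Without WT replicate 1 and WB-KO replicate 4, the libraries farthest from the median of *Meg3*, r was 0.98. With the genotype means subtracted r was 0.91, above 98.8% of the genes tested. Both genes lie on the plus strand of chromosome 12 and share no exonic base.

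*Meg3* and *Plagl1*, which lie on different chromosomes, had r = 0.94 as well (permutation test, adjusted p = 0.00255). Their ranks followed less closely, with rho = 0.71 (permutation test, adjusted p = 0.228). Leaving out the same 2 libraries gave r = 0.81, which no longer passed (permutation test, p = 0.0234, adjusted p = 0.199), and subtracting the genotype means gave r = 0.91. *Grb10* (r = 0.68, permutation test, adjusted p = 0.16) and *Igf2r* (r = -0.66, permutation test, adjusted p = 0.164) did not pass with *Meg3*. *Dlk1* of the same cluster had r = 0.34 with *Meg3* (permutation test, adjusted p = 0.642), and -0.01 without the 2 libraries.

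For *H19* the libraries fell into 2 sets, WB-KO replicates 2 and 3 and the other 8. Among the 9 pairs with *H19*, none passed over all 10 libraries, and the lowest adjusted p of the permutation tests was 0.194, for *Cdkn1c*. Within the other 8 libraries *H19* had r = -0.08 with *Cdkn1c*, -0.15 with *Meg3* and -0.09 with *Igf2*. The coincidence of *H19* and *Cdkn1c* thus rests on 2 libraries. The values of *H19* and *Meg3* in WB-KO mice differed in which library was highest: replicate 4 had the highest *Meg3* and the lowest *H19* of the group.

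**Figure D4:**
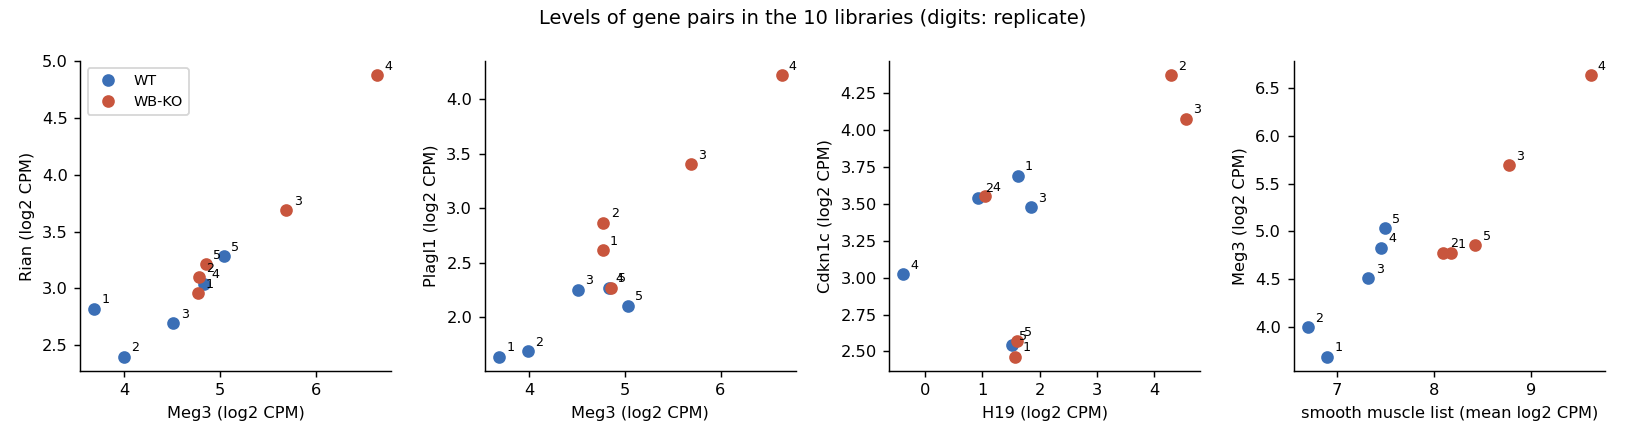
Log2 CPM of gene pairs in the 10 libraries, and *Meg3* against the mean of 11 smooth muscle genes (log2 CPM), with replicate numbers beside the points. *Rian* and *Plagl1* follow *Meg3* up to WB-KO replicate 4, whereas *H19* and *Cdkn1c* are high together only in WB-KO replicates 2 and 3.

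Ratios within a library do not depend on its scaling and were compared between genotypes for 5 pairs by exact permutation tests, which can reach p = 0.00794 at the lowest. The log2 ratio of *Igf2* to *Igf2r*, ligand to clearing receptor, was -4.10 ± 0.51 in WT and -3.36 ± 0.53 in WB-KO mice (SD, n = 5 each; exact permutation test, p = 0.0794, adjusted p = 0.397). The log2 ratio of *Meg3* to *Rian* was 1.56 ± 0.40 and 1.78 ± 0.14 (exact permutation test, p = 0.333), and it stayed between 1.64 and 2.0 in WB-KO libraries although both genes ranged widely there. *H19* to *Igf2*, a pair read from opposite parental copies, went from -2.21 ± 1.18 in WT to -0.95 ± 2.04 in WB-KO mice (exact permutation test, p = 0.286), with positive values only in WB-KO replicates 2 (0.85) and 3 (1.56). None of the 5 ratios passed, with *Meg3* to *Dlk1* (difference 0.26) and *H19* to *Meg3* (0.58) the remaining pairs.

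Markers of other cell types moved with some of these genes. Of the smooth muscle markers, 10 of 11 were called higher, and none of the 11 was at 0 in all libraries. Their mean log2 CPM, set beside the imprinted genes after the data had been seen, had r = 0.93 with *Plagl1*, 0.91 with *Meg3* and 0.89 with *Rian* (permutation tests over 10 genes, adjusted p = 0.0009 each). It had r = -0.81 with *Igf2r* (permutation test, adjusted p = 0.0081) and 0.31 with *H19* (adjusted p = 0.545). Without the 2 libraries farthest from the median of the score, r was 0.85 with *Plagl1*, 0.79 with *Meg3*, 0.73 with *Rian* and -0.71 with *Igf2r*. The permutations were over all 10 libraries and so include the difference between genotypes. With the genotype means subtracted, r was 0.96 with *Meg3*, higher than that of *Meg3* with *Rian*. In that form r was 0.95 with *Rian*, 0.88 with *Plagl1*, -0.53 with *Igf2r* and -0.32 with *H19*, a change of sign for *H19*.

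The score did not overlap between genotypes, from 6.70 to 7.49 in WT and from 8.10 to 9.61 in WB-KO libraries. With it as a covariate, edgeR gave log2 fold changes of -0.33 for *Plagl1* (adjusted p = 0.704), -1.0 for *Meg3*, -0.94 for *Rian* and -0.07 for *Igf2r* (adjusted p = 0.93), and 3.19 for *H19* (adjusted p = 0.39). In that fit 10 genes were called higher and 6 lower over all genes tested. Smooth muscle content and genotype cannot be told apart here.

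Enteric neuron and glia markers were called higher in 9 of 9 and summed to between 16.8 and 31.0 CPM in WT and between 35.3 and 105 CPM in WB-KO libraries, again highest in replicate 4. Interstitial pacemaker markers were called higher in 3 of 3, from 36.7 to 58.1 CPM in WT and from 62.3 to 133 CPM in WB-KO libraries, with the maximum in WB-KO replicate 3. The 10 enterocyte markers, of which 5 were called lower, summed to between 32483 and 43339 CPM in WT and between 13224 and 30520 CPM in WB-KO libraries, with replicate 1 highest in the WB-KO group, as it was for *Igf2r*. Not called, and overlapping between the groups, were *Anpep* (-0.11), *Fabp2* (-0.24), *Apoa1* (-0.36) and *Vil1* (-0.49). *Lct* is in this list and in that of the proximal markers, so that the sum also depends on position along the intestine. Beside *H19* and *Cdkn1c*, 5 adipose markers (4 called higher) summed to between 20.9 and 172 CPM in WT libraries and to 73.5, 678, 270, 990 and 91.1 CPM in WB-KO replicates 1 to 5. Adipose markers were thus high in both libraries with high *H19* but highest in replicate 4, where *H19* was low. None of these lists had a marker at 0 in all libraries, and their part in the results was not tested.

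Per length, the order of the 10 genes in WT mice was led by *Igf2r* with 18.4 ± 0.641 CPM per kb of exon and *Cdkn1c* with 4.82 ± 1.42 CPM per kb (SD, n = 5). *Igf2* followed at 1.81, *Meg3* at 1.24, *Peg3* at 1.16, *Grb10* at 1.10, *H19* at 0.947, *Plagl1* at 0.505, *Rian* at 0.398 and *Dlk1* at 0.0776 CPM per kb. The libraries of *Igf2r* and *Cdkn1c*, of *Cdkn1c* and *Igf2*, and of *Rian* and *Dlk1* did not overlap, whereas every other pair of neighbours in this order did. In WB-KO mice *H19* stood in the place after *Cdkn1c* with 4.14 ± 4.26 CPM per kb, and only *Rian* and *Dlk1* were apart from each other. That place of *H19* rests on WB-KO replicates 2 (7.97) and 3 (9.54), with replicates 1, 4 and 5 at 1.17, 0.794 and 1.19 CPM per kb. Levels of *Rian*, *Peg3*, *Grb10* and *Plagl1* depend on the transcript used for the length.

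**Figure D5:**
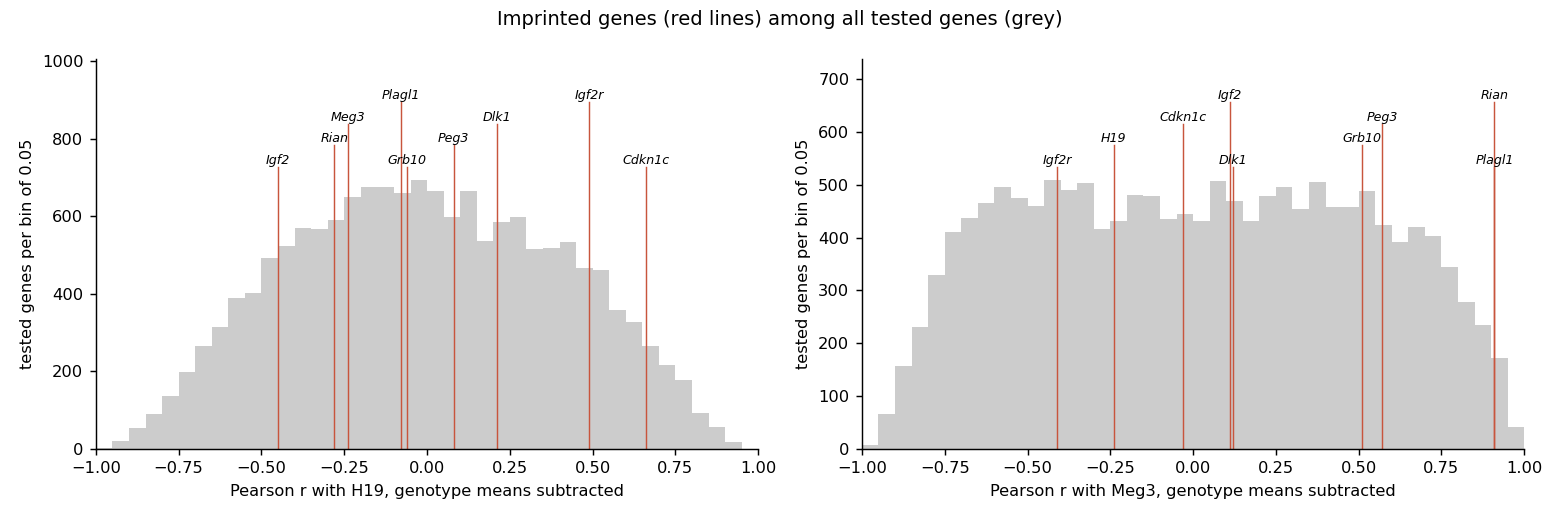
Number of tested genes per bin of Pearson's r with *H19* (left) and with *Meg3* (right) over the 10 libraries with genotype means subtracted, with red lines at the imprinted genes. *Rian* and *Plagl1* (r = 0.91 with *Meg3*) lie at the right edge, and *Cdkn1c* has the highest r with *H19* (0.66).

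Across all genes tested, those most like *Meg3* by r with the genotype means subtracted (n = 10 libraries) were *Car11* (0.988), *Sv2a* (0.985), *Mpp2* (0.984), *Epha7* (0.983) and *Rbpms* (0.98). All 5 were called higher in WB-KO mice, with log2 fold changes between 0.96 and 1.54. *Sv2a* encodes a synaptic vesicle protein and *Epha7* an ephrin receptor. Most like *H19* were *1810046K07Rik* (0.948), *Gm16907* (0.942), *Ifi202b* (0.935), *Hif1a* (0.933) and *Pde8a* (0.932). Of these, *Hif1a*, the oxygen-regulated transcription factor, was called, and it was lower in WB-KO mice (-0.73, edgeR adjusted p = 0.0407).

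Of 52 other genes listed as imprinted, 34 were tested, and 8 were called higher and 4 lower, 35.3% in all against 29.9% of all genes tested, with a median log2 fold change of 0.14 against 0.03. The counts do not separate the parental copies, so that whether a listed gene is imprinted in the intestine was not measured. The highest were *Mest* (1.52, edgeR adjusted p = 0.0302), a hydrolase-like gene of the mesoderm, *Ndn* (1.39, adjusted p = 0.00861), a growth suppressor of neurons, and *Nap1l5* (1.37, adjusted p = 0.0192). All 3 had their highest level in WB-KO replicate 4, the library with the most *Meg3*: *Mest* had 8.77 CPM there, against at most 1.68 CPM in WT libraries, and *Ndn* had 24.3 CPM, against at most 5.66 CPM. The lowest was *Ddc*, which encodes the decarboxylase that makes dopamine and serotonin (-1.93, adjusted p = 0.00357), followed by *Cobl* (-0.61) and *Cd81* (-0.55). *Dcn*, the collagen-binding proteoglycan decorin and one of the more abundant genes of the list, rose by 0.86 on the log2 scale (adjusted p = 0.0016), from 99.3 ± 16.7 CPM in WT to 180.3 ± 24.8 CPM in WB-KO mice.

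In the IGF pathway, 22 of 25 genes were tested, and 5 were called higher and 5 lower, 45.5% in all against 29.9% of all genes tested (16.0% higher, 13.9% lower), with a median log2 fold change of 0.00. The 5 higher genes all bear the name of IGF binding proteins, a family known for holding IGFs outside the cell. They were *Igfbp6* (1.57, edgeR adjusted p = 0.036), *Igfbp2* (1.39, adjusted p = 0.0126), *Igfbp5* (0.92, adjusted p = 0.0307), *Igfbp4* (0.88, adjusted p = 0.00757) and *Igfbp7* (0.46, adjusted p = 0.0165). *Igfbp3* went the other way (-0.88, adjusted p = 0.00174). *Pappa2*, a protease that cleaves IGF binding proteins, fell by 2.11 on the log2 scale (adjusted p = 0.00281), from 1.01 ± 0.269 to 0.231 ± 0.109 CPM. Also called lower were the receptor substrate *Irs2* (-0.96), the *Grb10* partner *Gigyf2* (-0.48) and the insulin receptor *Insr* (-0.41). *Igf1*, the other IGF ligand, differed by 0.77 on the log2 scale (adjusted p = 0.0826) and its receptor *Igf1r* by 0.12 (adjusted p = 0.686), without a call.

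Among 14 genes that keep or erase methylation at imprinted regions, none was called higher and 3 were called lower: *Zfp445* (-1.01, edgeR adjusted p = 0.0249), a zinc finger protein of imprinted regions, the methyltransferase *Dnmt3a* (-0.48, adjusted p = 0.0211) and the helicase *Hells* (-0.43, adjusted p = 0.0349). *Zfp445* averaged 44.6 ± 6.27 CPM in WT libraries against 22.2 ± 9.82 CPM in WB-KO libraries (SD, n = 5 each), with the lowest level, 8.82 CPM, in WB-KO replicate 4. *Zfp57*, whose letters stand in the *Meg3* and *Plagl1* windows, had a log2 fold change of 0.15 (adjusted p = 0.655). These are 21.4% of the list, where 29.9% of all genes tested were called and 13.9% were called lower. At an unadjusted p under 0.05, edgeR put 0 of the 14 higher and 4 lower, and DESeq2 called 0 higher and 3 lower. Of 12 Notch pathway genes, the ligands *Dll1* (-0.96, adjusted p = 0.00108) and *Jag1* (-0.64, adjusted p = 0.00256) were called lower and none higher, also at an unadjusted p under 0.05 (0 higher, 4 lower) and by DESeq2 (0 higher, 4 lower). The 2 genes are 16.7% of the list, where 13.9% of all genes tested were called lower. Of the 5 other cyclin-dependent kinase inhibitors tested, *Cdkn2d* (0.78), *Cdkn2b* (0.75) and *Cdkn2c* (0.53) were called higher, 60% against 16.0% of all genes tested, while *Cdkn1a* (0.30, adjusted p = 0.0889) and *Cdkn1b* (0.09), the closest relatives of *Cdkn1c*, were not.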

How the data were processed

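RNA-seq counts of 5 WT and 5 WB-KO mice were analysed, 1 library per mouse, grouped by the sample titles. Values are the counts the authors deposited for each Ensembl gene ID, whole numbers with no normalization. The submitters' processing notes name FastQC 0.11.9, Trimmomatic, HISAT2 2.0.4, SAMtools 1.3.1, DESeq2 1.14.1 and the builds GRCm38 and mm10, and the labels a SMARTer mRNA-Seq kit. Which counter, annotation and strand setting were used is not given in the sources used here.

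Of 35275 IDs, 34490 were given a symbol by GENCODE M21. Genotypes were tested in R 4.3.3 by the quasi-likelihood test of edgeR 4.0.16 (with limma 3.58.1) after TMM scaling, on the 15610 genes that filterByExpr left at a minimum count of 10 and a minimum total of 15, with p-values adjusted after Benjamini and Hochberg and called under 0.05. Correlations and ratios used log2 CPM with a prior count of 2. Median totals were 18206101 counts in WT and 18146070 in WB-KO libraries, and a count of 0 allows up to 3 counts (95% confidence, counting error only). The fits were tested on simulated data. Alternatives were RLE, library size scaling, DESeq2 1.42.0, testing without a filter, a filter on the mean count (10), robust dispersion, a block for the replicate number, a smooth muscle covariate, each library left out in turn, a prior count of 0.5, Spearman's rho, the longest transcript as length, and a log2 limit of 1.

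The 10 genes and the lists were chosen with earlier results of these data known. Named beside the 10 genes were at most the 3 highest and 3 lowest called and the 3 most abundant genes of a list, and the 5 genes most like *H19* and *Meg3*. Chosen after their values were seen were *Igfbp4*, *Gigyf2*, *Insr*, *Igf1*, *Igf1r*, *Zfp57*, *Cdkn1a*, *Cdkn1b*, *Slc40a1*, *Cybrd1*, *Anpep*, *Fabp2*, *Apoa1*, *Vil1*, *Gm26906*, *Airn*, *Igf2os*, *Mirg* and *Rtl1*. No column was left unused (0).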

Additional observations from a re-analysis of the deposited data

Results flagged for a closer look

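Within groups of 5 libraries, a highest or lowest library was marked when its gap to the nearest other library exceeded 0.71 of the range of the group (Dixon's limit at 95%). Of 34 groups examined, 4 were marked, and chance marks about 1 in 20. *Rian* had 29.3 CPM in WB-KO replicate 4, with a gap of 0.762 of the range. *Slc39a14* had 160.1 CPM in WB-KO replicate 1 (gap 0.813), the highest of the WB-KO group and below all WT libraries. *Igf2os*, the antisense RNA at *Igf2*, had 2.99 CPM in WB-KO replicate 1 (gap 0.904), the library that also had the most *Igf2*. The log2 ratio of *Meg3* to *Rian* was 0.87 in WT replicate 1 (gap 0.765), the lowest of the WT group. The causes were not tested.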

How the results depend on the processing

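Of the 10 genes, 1 was called higher and 1 lower. The higher count was 3 with library size scaling, 4 with DESeq2, 2 with the replicate block (*Meg3* 0.94, adjusted p = 0.039, was added) and 0 with the smooth muscle covariate, and the lower count was 0 with library size scaling, no filter, the covariate or a log2 limit of 1. With 1 library left out, 0 to 4 were higher and 0 to 1 lower. The covariate also gave 0 calls in either direction for other imprinted genes, the IGF pathway and the keepers, Notch genes and kinase inhibitors, and the log2 fold changes -1.0 (*Meg3*), -0.94 (*Rian*), -0.54 (*Peg3*), -0.33 (*Plagl1*) and -0.62 (*Slc39a14*, adjusted p = 0.44). Library size scaling, which moved the median of all genes to 0.15, gave 13 higher other imprinted genes, 3 lower IGF genes and 3 lower keepers, Notch genes and inhibitors, and the block gave 3 higher IGF genes and -0.02 for *Peg3*. Leaving out 1 library gave 4 to 10 higher and 3 to 6 lower other imprinted genes, 3 to 7 and 4 to 5 IGF genes, and 3 to 4 and 3 to 8 keepers, Notch genes and inhibitors. It gave -1.57 to -1.21 for *Slc39a14*, -0.04 to 0.41 for *Igf2*, -0.13 to 0.22 for *Peg3*, 2 to 3 correlated pairs, and -0.09 to 0.46 for r of *H19* with *Meg3*. Log2 ratio differences ranged from 0.64 to 1.76 (*H19* to *Igf2*), 0.02 to 1.3 (*H19* to *Meg3*), 0.59 to 0.93 (*Igf2* to *Igf2r*), -0.01 to 0.71 (*Meg3* to *Dlk1*) and 0.04 to 0.28 (*Meg3* to *Rian*). The number of correlated pairs was 1 by Spearman's rho and 1 without the 2 farthest libraries. *H19* with *Meg3* then had -0.03 and -0.15, and *H19* with *Cdkn1c* -0.08 without those 2. With the longest transcript as length, levels were 0.896 (*Rian*), 1.78 (*Peg3*), 0.750 (*Plagl1*), 1.98 (*Grb10*) and 19.3 (*Igf2r*) CPM per kb. Same-numbered libraries did not deviate together (r from -0.167 to 0.177), which does not settle whether the numbers pair mice. The causes were not tested.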

Other observations

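Neighbours of the 10 genes were counted as well. *Airn*, the noncoding RNA read across the start of *Igf2r* on the opposite strand, averaged 4.73 ± 0.633 CPM in WT libraries against 3.96 ± 0.739 CPM in WB-KO libraries (SD, n = 5 each), a log2 difference of -0.25 (edgeR adjusted p = 0.293). It shares no exonic base with *Igf2r*, whose exons gave the lower level in all 5 WB-KO libraries. *Igf2os* had 53 counts in WB-KO replicate 1 and between 3 and 14 counts in each of the other libraries. It overlaps 98 exonic bases of *Igf2* on the opposite strand, and reads from those bases cannot be told apart without strand. *Mirg*, the last noncoding RNA of the *Meg3* cluster, was below the filter and had its highest count, 34, in WB-KO replicate 4, where *Meg3* and *Rian* also peaked. Its mean log2 CPM differed by 0.62 between genotypes (exact permutation test, p = 0.151). *Rtl1*, read from the father's copy in that cluster, had 6 counts over the WT and 25 over the WB-KO libraries, a difference of 0.89 in mean log2 CPM (exact permutation test, p = 0.0952).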
